A study of Mus musculus with 9 samples.

Results

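Skeletal alpha-actin, the product of the gene Acta1 (ENSMUSG00000031972), stood at 2 levels in 9 sequenced mouse hearts, and the hearts were grouped by that level. The 4 libraries with over 10000 raw Acta1 counts (WA_127, WA_130, WA_132 and KKA_K084) are called Acta1-high, and the 5 libraries below it (WC_3, WC_182, WC_184, KKA_186 and KKA_187) are called Acta1-low. Together they are all 9 samples of the series. The groups were chosen on measured values of these same libraries, so differences between them are described and not tested, and no p-value is given for them.

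All hearts came from C57BL/6 mice, an inbred laboratory strain. The treatment labels give 3 groups of 3 libraries. Ctrl mice received PBS, a salt buffer, and AngII mice received angiotensin II, a hormone that constricts blood vessels. Kmo_AngII mice also received angiotensin II, and the labels do not say what Kmo stands for. The Acta1-high side holds WA_127 and WA_130 (labelled Ctrl), WA_132 (labelled AngII) and KKA_K084 (labelled Kmo_AngII). The Acta1-low side holds WC_184 (labelled Ctrl), WC_3 and WC_182 (labelled AngII) and KKA_186 and KKA_187 (labelled Kmo_AngII). Each label is therefore on both sides, and whether each library carries the treatment label of its own heart was not tested. The letters WA, WC and KKA at the start of the sample titles follow the sides more closely than the labels do: all 3 WA libraries are Acta1-high, all 3 WC libraries are Acta1-low, and the KKA libraries are 1 and 2. The labels do not explain these letters.

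Actins are the thin filaments that myosin pulls on when muscle contracts. The adult mouse heart builds them mainly from cardiac alpha-actin (Actc1), while Acta1 is the main form in skeletal muscle and is expressed in the fetal heart. Its return in the adult ventricle, together with the natriuretic peptides Nppa and Nppb and the slow myosin Myh7, is widely used as a marker of the fetal gene programme of a heart under load. Transcription of Acta1 in muscle is known to depend on serum response factor, which binds CArG boxes, and on TEAD factors, which bind MCAT elements.

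The libraries held 56827533 to 73194268 counts. Mitochondrially encoded genes took 30.3% to 52.6% of the counts on the Acta1-high side and 32.0% to 55.5% on the Acta1-low side, so these ranges overlap. Haemoglobin genes took 0.0144% to 0.0541% on the high side and 0.0267% to 0.986% on the low side, with all 3 WC libraries above every other library. The Acta1-low library KKA_186 stood apart from the other 4 of its side in markers of atrial muscle. Values are given throughout in the order WA_127, WA_130, WA_132, KKA_K084 and then WC_3, WC_182, WC_184, KKA_186, KKA_187. Myl7, an atrial myosin light chain, had 0.399, 47.7, 0 and 0.514 CPM against 0.318, 0.416, 0.567, 469 and 0.854 CPM. Myl4, the other atrial light chain, had 2.76, 65.2, 2.75 and 2.21 CPM against 1.58, 1.397, 2.89, 385 and 1.48 CPM. Sarcolipin (Sln), an atrial regulator of the calcium pump, had 0, 35.04, 0 and 0.179 CPM against 0.0824, 0.164, 0.0532, 289 and 0.488 CPM. KKA_186 was the highest of the 9 libraries in all 3 genes, and WA_130 was the highest of the Acta1-high side. CPM are counts relative to the library total after scaling for library composition, and they are not corrected for gene length. No label says whether libraries came from separate animals, so the spread between them may be technical.

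Acta1 stood at 678, 686, 617 and 633 CPM in the Acta1-high libraries and at 11.3, 17.4, 11.5, 12.98 and 39.6 CPM in the Acta1-low libraries. In raw counts the library just inside the threshold was WA_130 with 28757 and the one just outside was KKA_187 with 2595. The 4 high libraries lie close together, and within the low side KKA_187 lies above the other 4. The mean level was 654 ± 33.7 CPM (SD, n = 4) against 18.6 ± 12.01 CPM (SD, n = 5). The mean log2 CPM differed by 5.32, a ratio of geometric means of 39.9, which was the widest of the 19091 genes tested. Acta1 is the gene that the rule used, by its raw counts.

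**Figure D1:**
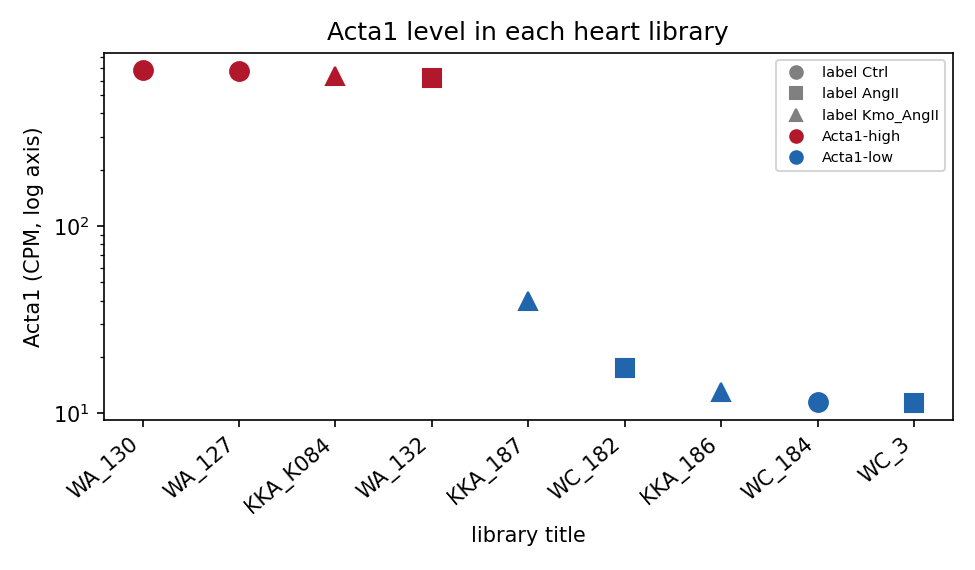
Acta1 level (CPM, log axis) in each of the 9 libraries, ordered by level, with the treatment label as the shape of the point and the side as its colour. The 4 Acta1-high libraries sit between 617 and 686 CPM and the 5 Acta1-low libraries between 11.3 and 39.6 CPM, and all 3 labels appear on both sides.

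The promoter of Acta1 and those of 3 other genes that rank among the widest gaps between the sides are shown, because the regulators of Acta1 named above bind short motifs, which are marked. The sequences are RefSeq, build GRCm38.p6, the 250 bases before the annotated start, written 5′ to 3′ along the gene. Capitals mark the TATA box (TATAAA), the MCAT element (CATTCC, on either strand) and the CArG box of serum response factor.
Acta1, chr8:123894776-123895025, minus strand: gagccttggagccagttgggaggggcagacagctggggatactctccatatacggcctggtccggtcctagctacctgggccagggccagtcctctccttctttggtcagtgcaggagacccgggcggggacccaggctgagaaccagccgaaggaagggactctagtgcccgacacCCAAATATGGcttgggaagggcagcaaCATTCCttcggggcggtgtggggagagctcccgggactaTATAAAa
Actc1, chr2:114052876-114053125, minus strand: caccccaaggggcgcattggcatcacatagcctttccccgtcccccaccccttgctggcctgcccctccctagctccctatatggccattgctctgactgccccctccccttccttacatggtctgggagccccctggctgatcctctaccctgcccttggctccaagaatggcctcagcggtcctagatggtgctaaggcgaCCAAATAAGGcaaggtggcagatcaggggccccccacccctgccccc
Ankrd1, chr19:36119845-36120094, minus strand: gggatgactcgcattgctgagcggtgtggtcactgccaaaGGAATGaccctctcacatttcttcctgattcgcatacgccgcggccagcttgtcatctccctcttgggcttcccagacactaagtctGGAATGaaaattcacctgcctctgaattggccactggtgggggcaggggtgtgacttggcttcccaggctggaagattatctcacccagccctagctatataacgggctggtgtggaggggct
Nppb, chr4:147985650-147985899, plus strand: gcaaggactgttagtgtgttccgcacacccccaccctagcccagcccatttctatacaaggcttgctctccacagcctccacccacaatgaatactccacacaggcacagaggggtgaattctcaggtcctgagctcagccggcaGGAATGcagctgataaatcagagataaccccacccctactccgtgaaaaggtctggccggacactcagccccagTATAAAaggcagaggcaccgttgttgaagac
In the Acta1 window the CArG box lies 73 to 64 bases before the start, the MCAT element 46 to 41 bases and the TATA box 7 to 2 bases. Actc1 has a CArG box 47 to 38 bases before its start, Ankrd1 has 2 MCAT elements, and Nppb has an MCAT element and a TATA box. Both strands were searched, also for the MEF2 site, which was not matched in these 4 windows. Of 32851 promoter windows of this length, 1.47% hold a CArG box, 12.6% an MCAT element, 12.4% a TATA box and 2.92% a MEF2 site. A match is a match of letters, and binding was not measured.

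Between the treatment labels, which the rule did not use, differences were tested in 1 fit of all 9 libraries. With edgeR's quasi-likelihood test and Benjamini-Hochberg adjustment over 19091 genes, 0 genes (0%) passed an adjusted p of 0.05 for AngII minus Ctrl, 0 (0%) for Kmo_AngII minus AngII and 0 (0%) for Kmo_AngII minus Ctrl. At an unadjusted p under 0.05 the counts were 1003, 412 and 533, and by the DESeq2 Wald test 8, 3 and 9 genes were called. The log2 difference of Acta1 itself was -1.09 ± 1.77 (SE) for AngII minus Ctrl, 0.09 ± 1.75 for Kmo_AngII minus AngII and -1.005 ± 1.76 for Kmo_AngII minus Ctrl, with edgeR adjusted p of 0.957, 0.9998 and 0.998. Among the 168 genes chosen for description, the lowest edgeR adjusted p in any of the 3 label comparisons was 0.890.

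Across all genes, separation by Acta1 level was common. A gene is said to be separated, higher or lower, when its values in the 4 Acta1-high libraries do not overlap those in the 5 Acta1-low libraries. By this description 2196 genes were higher (11.5% of those tested) and 2018 were lower (10.6%). With a difference of at least 2-fold as well, 766 genes were higher (4.01%) and 652 were lower (3.42%). The split between the directions depends on scaling. It was 52.1% higher and 47.9% lower with composition scaling, 29.6% and 70.4% (479 and 1138 genes, 2.51% and 5.96% of those tested) with library size alone, and 59.3% and 40.7% (2512 and 1722 genes) without mitochondrially encoded and haemoglobin genes. Without KKA_186 13.2% of genes were higher and 12.5% lower, and without WA_130 14.6% and 12.4%, since fewer libraries overlap less easily. The median log2 difference of all genes was -0.05 with composition scaling, -0.18 with library size alone and 0.01 without those genes, and the medians of gene lists below are to be read against the first.

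Genes whose 2 levels looked most like those of Acta1 were taken as those where the gap between the sides is the largest share of the gene's whole range over the 9 libraries, among 60 genes with a gap of at least 2-fold and a mean log2 CPM of at least 1. Of these 60 genes 46 were higher and 14 lower. Acta1 had a share of 0.67 and ranked 2. Pyroxd2, an oxidoreductase-domain gene, ranked first with 0.73 and ran the opposite way, at 2.67, 2.65, 2.698 and 2.68 CPM in the Acta1-high libraries and at 6.15, 6.57, 7.41, 8.09 and 6.07 CPM in the Acta1-low libraries. Its 4 high-side values were nearly equal. Dixdc1, a DIX-domain gene of Wnt signalling, had a share of 0.66 and was also lower, with 3.97 ± 0.332 CPM (SD, n = 4) against 12.8 ± 1.62 CPM (SD, n = 5). Among the higher genes, the co-chaperone Dnajb4 had a share of 0.62 and stood at 60.2, 64.1, 59.4 and 66.2 CPM in the Acta1-high libraries and at 27.4, 20.1, 24.7, 18.98 and 24.7 CPM in the Acta1-low libraries. Sh3bgr, a small SH3-binding protein of muscle, Ankrd23, a stretch-responsive ankyrin repeat protein, Rcan1, an inhibitor of calcineurin, and the pseudogenes Gm15459 and Hsp25-ps1 followed with shares of 0.54 to 0.60, as did Alox12, an arachidonate lipoxygenase, which was lower. Hsp25-ps1 resembles Hspb1 in sequence, so reads of one may be counted for the other.

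Among the genes of the fetal and load-responsive programme, 7 of 18 were higher and 0 were lower, with a median log2 difference of 1.51. All 7 were also separated with library size alone. Acta1 is one of the 7. Nppb, the B-type natriuretic peptide, stood at 350.3, 474, 286 and 533 CPM in the Acta1-high libraries and at 35.9, 20.6, 53.3, 23.1 and 96.8 CPM in the Acta1-low libraries. The highest low-side library was KKA_187, and the log2 difference was 3.36. Ankrd1, a titin-bound repeat protein that responds to stretch, stood at 1374, 1329, 818 and 1723 CPM in the Acta1-high libraries and at 65.2, 119, 149.6, 204 and 247 CPM in the Acta1-low libraries. Its sides do not overlap, and the log2 difference was 3.15. Xirp2, an actin-binding protein of the intercalated disc, differed by 1.89, its relative Xirp1 by 1.26, Enah, which lengthens actin filaments, by 2.09, and Rcan1 by 1.88.

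The atrial natriuretic peptide gene Nppa overlapped because of 1 library. It stood at 1222, 603, 808 and 1186 CPM in the Acta1-high libraries and at 107, 48.00, 114, 1101 and 121 CPM in the Acta1-low libraries. KKA_186 lies among the high-side values, and the other 4 low libraries lie at 48.0 to 121 CPM, below every high library. Without KKA_186, 10 of 18 genes of this list were separated and higher. The myosin heavy chains were not separated. Myh7, the slow myosin heavy chain, overlapped with 1571, 1346, 984 and 1291 CPM against 591, 869.8, 859, 733 and 1114 CPM, since WA_132 lies below KKA_187, and Myh6, the adult fast form, overlapped with 14721 ± 1381 CPM (SD, n = 4) against 12092 ± 3055 CPM (SD, n = 5). Cilp and Thbs4, matrix proteins of the stressed heart, differed by 1.76 and 2.27 and overlapped, with KKA_186 above the lowest high-side library in both.

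**Figure D2:**
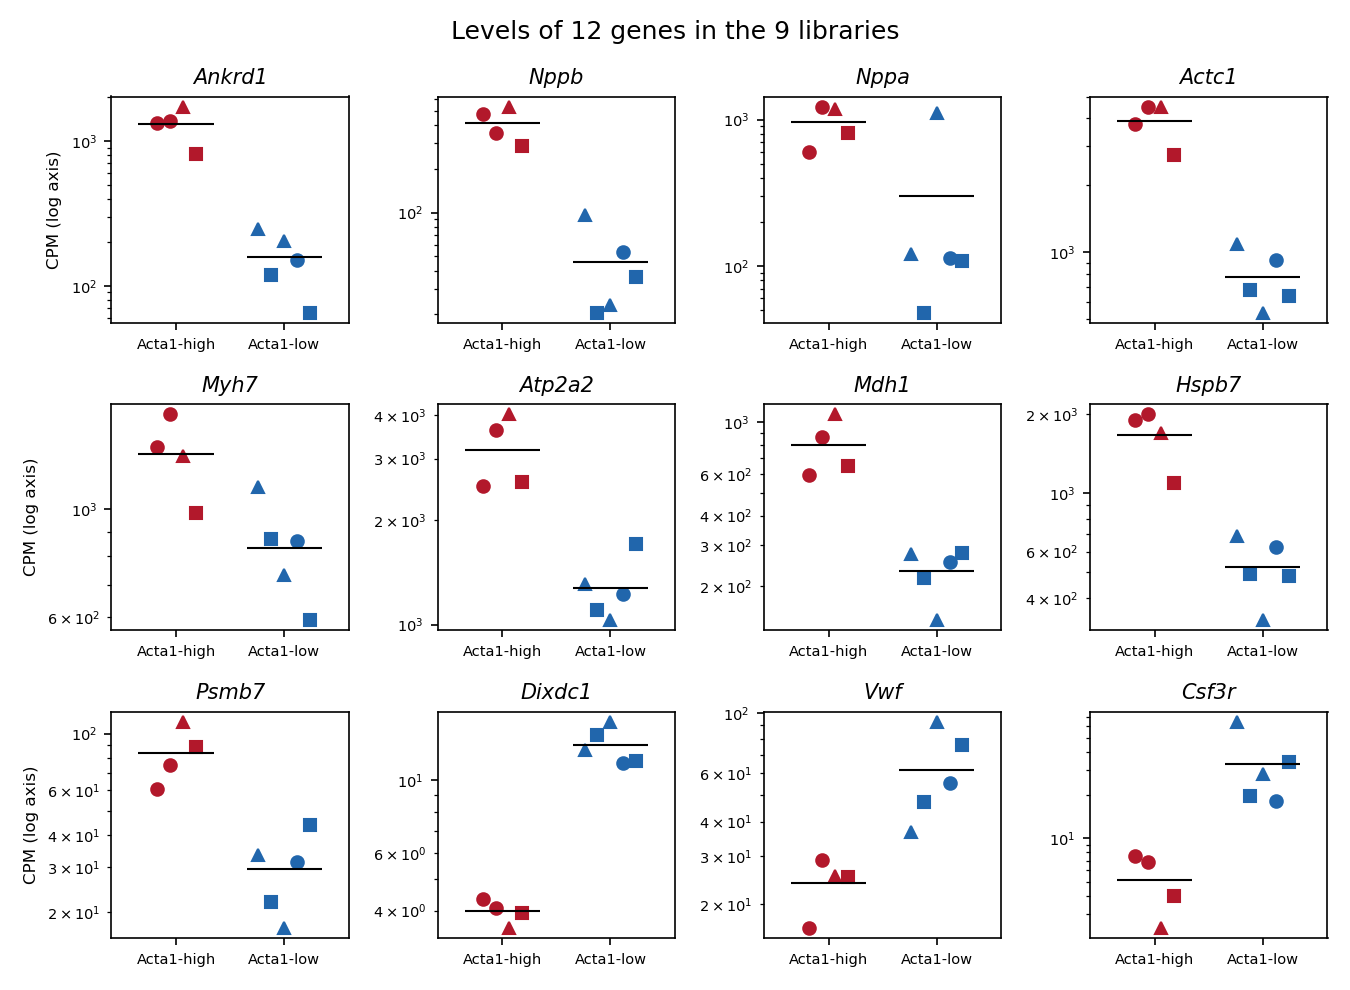
Levels of 12 genes (CPM, log axes with their own range) in the 9 libraries, with Acta1-high in red and Acta1-low in blue, circles for Ctrl, squares for AngII, triangles for Kmo_AngII and a line at the mean of each side. Nppa shows 1 Acta1-low library at the level of the Acta1-high side, Myh7 overlaps, and the other 10 genes do not.

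Of 17 thick and thin filament genes 9 were higher and 0 lower, with a median of 0.84, and 5 were separated with library size alone. Actc1, the cardiac alpha-actin, stood at 4479, 3781, 2733 and 4499 CPM in the Acta1-high libraries and at 637, 676, 919.8, 537 and 1090.4 CPM in the Acta1-low libraries. Thus both striated muscle actins were higher in the same 4 libraries, and the log2 difference of Actc1 was 2.35. The coding sequences of Acta1, Actc1 and Acta2 are similar, so part of the reads may be counted for the wrong gene. Acta2, the smooth muscle actin, overlapped with 73.7 ± 9.76 CPM (SD, n = 4) against 72.8 ± 14.04 CPM (SD, n = 5). Lmod2, which lengthens thin filaments, differed by 1.71, the essential light chain Myl3 by 1.62, troponin C (Tnnc1) by 1.39 and tropomyosin (Tpm1) by 1.38. Myl3 overlapped with library size alone. Titin (Ttn), troponin T (Tnnt2), troponin I (Tnni3) and Myh6 overlapped, with differences of 0.46, 0.59, 0.41 and 0.32.

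Of 24 genes of the Z-disc, the M-band and stretch sensing, 18 were higher and 0 lower, with a median of 1.45, and 12 were separated with library size alone. Synpo2l, a Z-disc protein, stood at 176, 202, 114 and 189.8 CPM in the Acta1-high libraries and at 20.2, 37.7, 39.4, 50.04 and 26.5 CPM in the Acta1-low libraries. The lowest high-side library, WA_132, lies above all low libraries by over 2-fold, and the log2 difference was 2.33. Myoz2, which tethers calcineurin at the Z-disc, had 889.7 ± 141 CPM (SD, n = 4) against 286 ± 44.3 CPM (SD, n = 5). Klhl41, a Kelch protein that keeps sarcomere proteins stable, differed by 1.74, the LIM protein Csrp3 by 1.51, filamin C (Flnc) by 1.49, desmin (Des) by 1.48 and the M-band protein Myom2 by 1.48. Telethonin (Tcap) at 0.27 and nexilin (Nexn) at 0.03 overlapped. Several genes, among them Acta1, Ankrd1, Xirp1, Xirp2 and Myoz2, stand in more than 1 list, so the counts of the lists are not separate.

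Calcium handling genes were partly higher, 9 of 17, with 1 lower and a median of 0.68. With library size alone 1 was separated and higher, so these calls depend on the scaling. Atp2a2, the calcium pump of the sarcoplasmic reticulum, stood at 3633, 2495, 2571 and 4019 CPM in the Acta1-high libraries and at 1699, 1098, 1223, 1030.1 and 1309.9 CPM in the Acta1-low libraries. Its inhibitor phospholamban (Pln) had 2658 ± 559.9 CPM (SD, n = 4) against 1205 ± 279 CPM (SD, n = 5), and Casq2, which stores calcium, had 488 ± 108 CPM (SD, n = 4) against 150.1 ± 21.9 CPM (SD, n = 5). Atp2a2 and Pln overlapped with library size alone, where Casq2 did not. The ryanodine receptor Ryr2, the release channel, overlapped with 452 ± 75.2 CPM (SD, n = 4) against 388 ± 117 CPM (SD, n = 5). The L-type channel subunit Cacna1c was lower, at 184, 201, 191 and 175 CPM in the Acta1-high libraries and at 326, 431, 315, 268 and 378 CPM in the Acta1-low libraries. Cacna1c overlapped with library size alone. Among potassium channel and conduction genes, 6 of 19 were higher and 1 lower, with a median of 0.28, and without KKA_186 6 were higher and 2 lower, with a median of 0.51. Kcne1, a potassium channel beta subunit, was higher by 2.61, and Kcnd3, a channel of the transient outward current, was lower by a log2 difference of -1.27, at 9.900, 9.64, 12.02 and 10.9 CPM against 23.3, 30.7, 21.6, 22.1 and 31.4 CPM.

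Nuclear genes of mitochondrial metabolism were higher in large part. Of 18 genes listed for the tricarboxylic acid cycle 17 were higher and 0 lower, with a median of 1.32. This list also holds the cytosolic Mdh1 and the pyruvate dehydrogenase genes Pdha1, Pdhb and Dlat. Of 23 genes of fatty acid uptake and oxidation 19 were higher and 0 lower, also with a median of 1.32. With library size alone 10 and 5 genes of these lists were separated, of which 9 and 5 were separated under both scalings. Mdh1, the cytosolic malate dehydrogenase, stood at 861, 593, 649 and 1078 CPM in the Acta1-high libraries and at 278, 217, 253, 144 and 275 CPM in the Acta1-low libraries. Sucla2, a subunit of succinyl-CoA ligase, had 233 ± 56.95 CPM (SD, n = 4) against 66.00 ± 15.7 CPM (SD, n = 5). The gene of the tricarboxylic acid cycle list that overlapped was Idh3g, with a difference of 0.75, and it was separated and higher with library size alone. Fabp3, the fatty acid binding protein of heart, stood at 1782, 1435, 1734 and 2289.7 CPM in the Acta1-high libraries and at 673, 459.5, 623, 211 and 705 CPM in the Acta1-low libraries. KKA_186 is the lowest of the low side in Mdh1, Sucla2 and Fabp3. Etfa, which passes electrons from beta-oxidation to the respiratory chain, differed by 1.90 and Hadhb of the trifunctional protein by 1.69, and both overlapped with library size alone. Cpt1b, the entry enzyme of fatty acid oxidation, overlapped at 0.29, and so did the fatty acid transporter Cd36 at 0.55.

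Of 41 nuclear genes of oxidative phosphorylation 26 were higher and 0 lower, with a median of 1.13, and 4 were separated with library size alone. Uqcrc2 of complex III differed by 1.63, Sdha of complex II by 1.55, Atp5a1 of the ATP synthase by 1.55 and Ndufa10 of complex I by 1.36. The 13 protein genes of the mitochondrial genome did not follow: 0 were higher and 0 lower, with a median of -0.07, and mt-Nd1 had 32517 ± 17386 CPM (SD, n = 4) against 36749 ± 17151 CPM (SD, n = 5). Targets of PPAR factors that answer to fasting were near the background, with 2 of 16 higher and 0 lower, and 4 higher without WA_130. The 2 were Pdk4, which blocks pyruvate oxidation, with 130.4 ± 49.1 CPM (SD, n = 4) against 37.03 ± 20.9 CPM (SD, n = 5), and the coactivator Ppargc1a, by 0.96. Both overlapped with library size alone.

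Glycolysis and glucose uptake had 12 of 21 genes higher and 0 lower, with a median of 0.68, of which 1 was separated with library size alone. Slc16a1, a lactate and pyruvate carrier, differed by 1.93, phosphoglycerate kinase (Pgk1) by 1.54 and the muscle enolase Eno3 by 1.35. Gapdh at 0.01 and the insulin-regulated glucose carrier Slc2a4 at 0.62 overlapped. Antioxidant enzymes had 7 of 23 higher and 1 lower. Prdx3, the peroxiredoxin of mitochondria, differed by 1.75 and Sod2, the superoxide dismutase of mitochondria, by 1.298, the latter overlapping with library size alone.

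Chaperones were higher almost throughout. Of 21 heat shock and chaperone genes 18 were higher and 0 lower, with a median of 1.28, and 10 were separated with library size alone. Hspb1, a small heat shock protein that is abundant in muscle, stood at 179, 191, 321 and 239.5 CPM against 62.3, 67.8, 75.3, 49.1 and 96.5 CPM. Hspb6, another of the family, stood at 1145, 1223, 478 and 659.7 CPM against 100.1, 238, 326, 169 and 314 CPM. Hspb7, a form found chiefly in heart and skeletal muscle, stood at 1998, 1899.8, 1095 and 1693 CPM against 486, 493, 623, 329 and 689 CPM. In all 3 the sides do not overlap, and WA_132 is the highest library for Hspb1 and the lowest of the high side for Hspb6 and Hspb7. Cryab, which protects desmin, differed by 1.43 and Hsp90aa1 by 1.21. Hspa1a, a stress-induced chaperone with a near-identical copy, differed by 1.58 but nearly touched, with the high-side lowest at 4.65 and the low-side highest at 4.51 CPM.

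Genes of the unfolded protein response of the endoplasmic reticulum had 11 of 20 higher and 0 lower, with a median of 0.79. With library size alone 5 were separated, of which 3 were among the 11. Hspa5, its main chaperone, had 286 ± 45.1 CPM (SD, n = 4) against 104 ± 12.3 CPM (SD, n = 5), and Hsp90b1 had 259.9 ± 43.2 CPM (SD, n = 4) against 112 ± 13.1 CPM (SD, n = 5). Hspa5 overlapped with library size alone. The sensor Ern1 and the transcription factor Xbp1 overlapped, at -0.30 and -0.13. Proteasome subunits had 20 of 28 higher and 0 lower, with a median of 0.77. Psmb7, a catalytic subunit, had the widest difference of them, 1.54, at 75.3, 60.6, 88.9 and 111 CPM in the Acta1-high libraries and at 44.00, 21.9, 31.5, 17.4 and 33.6 CPM in the Acta1-low libraries. With library size alone 1 of the 28 was separated and Psmb7 overlapped. Muscle ubiquitin ligases and autophagy genes had 4 of 19 higher and 0 lower (7 and 0 without WA_130), among them the ligase Trim63 with 59.9 ± 17.9 CPM (SD, n = 4) against 30.00 ± 8.36 CPM (SD, n = 5), which overlapped with library size alone, while the ligase Fbxo32 overlapped at 0.41.

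Mitochondrial ribosomal proteins had 17 of 22 higher and 0 lower, with a median of 0.76, and 0 of them were separated with library size alone. Cytosolic ribosomal proteins had 2 of 33 higher and 0 lower, with a median of 0.05, and 5 higher without WA_130. Translation factors had 13 of 21 higher and 1 lower, with a median of 0.56, and 2 and 1 with library size alone. The 2 forms of elongation factor 1 alpha ran opposite ways. Eef1a2, the form of adult muscle and neurons, stood at 558, 366, 289.9 and 537 CPM in the Acta1-high libraries and at 122, 134, 143, 99.8 and 189 CPM in the Acta1-low libraries. Eef1a1, the form of most other cells, was lower at 653, 693, 623 and 631 CPM against 792, 813, 885, 1552 and 778 CPM. Eif4g1, the scaffold of the cap-binding complex, had 149 ± 33.4 CPM (SD, n = 4) against 65.7 ± 5.58 CPM (SD, n = 5) and Eif4e, the cap-binding protein, 67.1 ± 13.1 CPM (SD, n = 4) against 29.4 ± 5.48 CPM (SD, n = 5). Of these 2, Eif4g1 overlapped with library size alone.

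Signalling genes gave smaller counts. Of 12 calcineurin and NFAT genes 4 were higher and 1 lower. Rcan1, whose transcription calcineurin is known to induce, stood at 53.8, 59.1, 45.1 and 65.2 CPM in the Acta1-high libraries and at 18.3, 12.3, 14.7, 14.98 and 15.3 CPM in the Acta1-low libraries. The calcineurin catalytic subunits Ppp3ca and Ppp3cb overlapped at -0.10 and 0.11, and the inhibitor Cabin1 was lower, at a log2 difference of -0.85. Of 20 actin cytoskeleton genes and serum response factor targets 3 were higher and 2 lower, with a median of -0.04. The factor itself, Srf, had 31.7 ± 8.12 CPM (SD, n = 4) against 16.6 ± 2.99 CPM (SD, n = 5), and it overlapped with library size alone. Tnfrsf12a, the receptor of the cytokine TWEAK, had the widest gap after Acta1 among genes with a mean log2 CPM of at least 1 that were chosen for description, at 61.1, 58.5, 60.5 and 96.6 CPM in the Acta1-high libraries and at 11.98, 8.06, 9.16, 5.98 and 15.2 CPM in the Acta1-low libraries. Immediate-early genes had 4 of 22 higher and 0 lower, and 7 higher without KKA_186. Atf3, a stress-induced factor, had 13.9 ± 3.29 CPM (SD, n = 4) against 3.83 ± 0.915 CPM (SD, n = 5) and Nr4a3, an orphan nuclear receptor, 5.07 ± 1.35 CPM (SD, n = 4) against 1.48 ± 0.625 CPM (SD, n = 5). Fos and Egr1 overlapped, at -0.83 and -0.39.

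In the renin-angiotensin and endothelin list 2 of 13 were higher and 3 lower. The 2 endothelin ligands ran opposite ways. Edn3 stood at 11.4, 3.63, 5.397 and 9.52 CPM in the Acta1-high libraries and at 0.754, 0.758, 1.26, 0.8288 and 1.25 CPM in the Acta1-low libraries, with a log2 difference of 2.81. Edn1, the endothelial form, stood at 2.15, 2.79, 3.899 and 3.98 CPM against 8.44, 5.203, 6.77, 5.47 and 4.07 CPM, so that the sides almost touched, and it overlapped with library size alone. Mas1, the receptor of angiotensin-(1-7), was lower by a log2 difference of -1.31. The angiotensin receptor Agtr1a at 0.53 and the converting enzyme Ace at -0.06 overlapped. The gene with the symbol Kmo, whose tie to the treatment label of that name is not stated, had 0.862 ± 0.407 CPM (SD, n = 4) against 0.723 ± 0.361 CPM (SD, n = 5), and Josd2, a deubiquitinase, 55.03 ± 4.68 CPM (SD, n = 4) against 49.6 ± 13.1 CPM (SD, n = 5), and both overlapped. The lists of clock genes (1 of 19 higher, 0 lower, and 3 higher without KKA_186) and of cell cycle genes (3 of 23 higher, 2 lower) were near or below the background, and of the 20 interferon-stimulated genes 0 were separated in either direction.

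**Figure D3:**
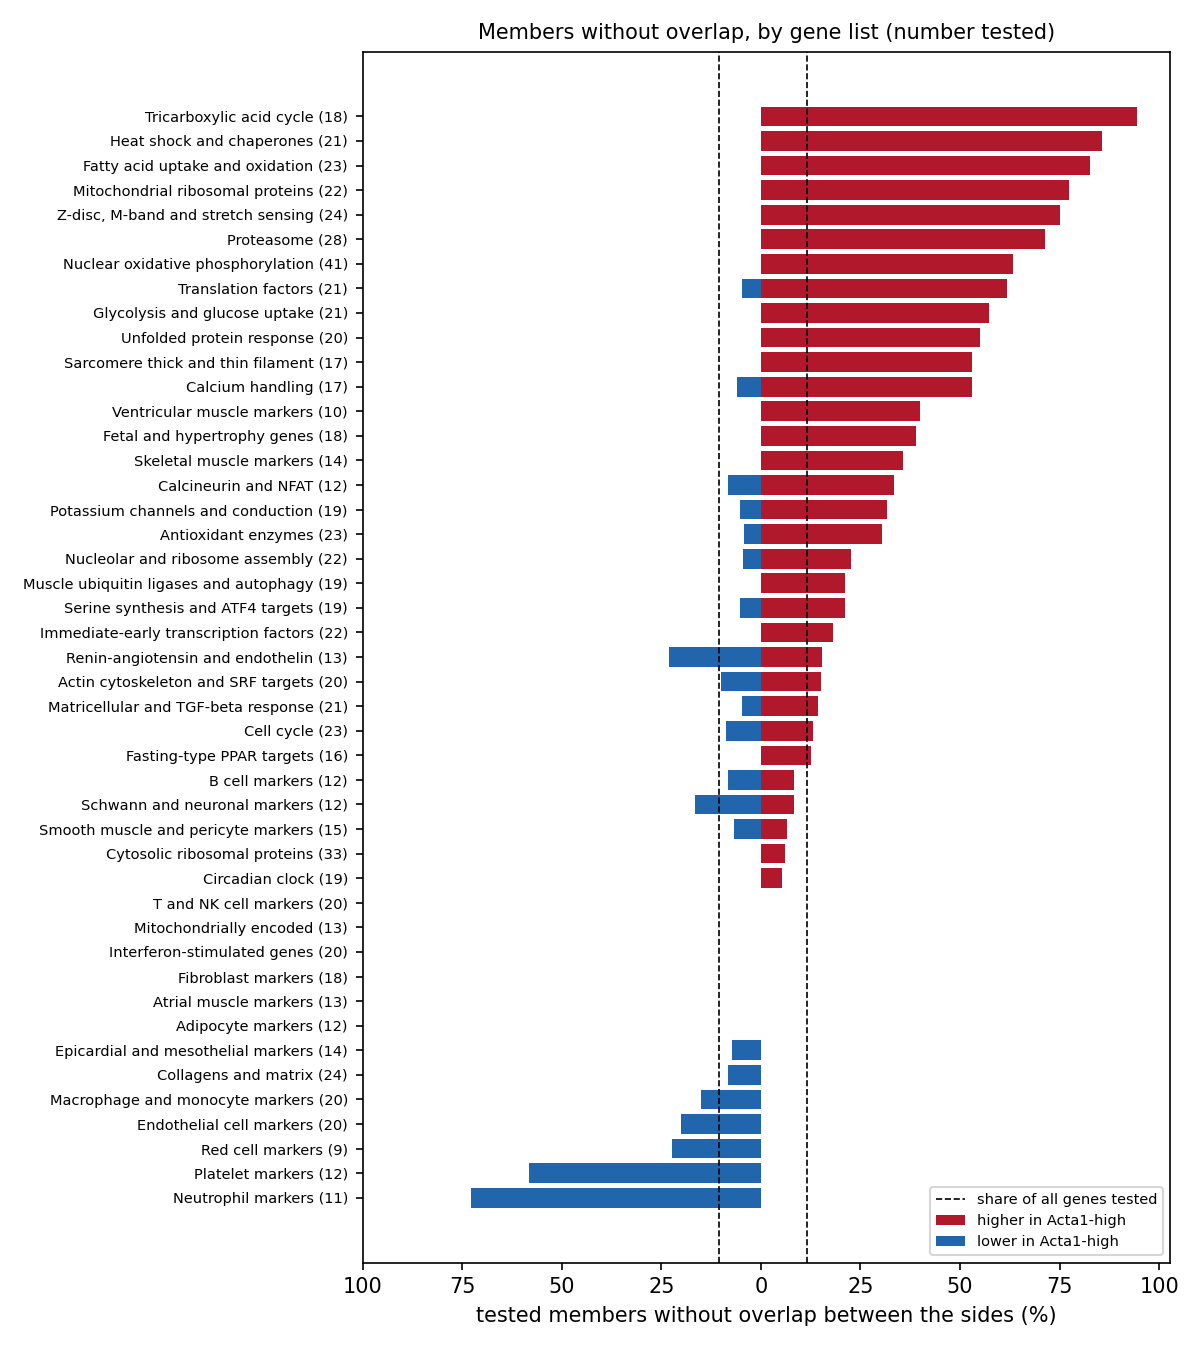
Share of tested members (%) of each of 45 gene lists that were separated and higher (red, to the right) or lower (blue, to the left) in the Acta1-high hearts, with the number tested in brackets and dashed lines at the share of all genes tested, 11.5% higher and 10.6% lower. The tricarboxylic acid cycle, fatty acid, chaperone, Z-disc and proteasome lists lie far to the right, and neutrophil and platelet markers lie far to the left.

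Matrix genes turned on 1 library. Of 24 collagen and matrix genes 0 were higher and 2 lower, with a median of 0.45. Without KKA_186, 11 of 24 were higher and 2 lower, and the median was 0.80. Without WA_130, 0 were higher and 4 lower. Col1a1, the main chain of fibrillar collagen, stood at 47.1, 80.1, 41.02 and 48.8 CPM in the Acta1-high libraries and at 22.2, 34.1, 47.3, 198 and 19.98 CPM in the Acta1-low libraries. KKA_186 had the highest level of all 9. Postn, a protein of activated fibroblasts, overlapped with 38.1, 79.5, 43.6 and 40.4 CPM against 10.6, 12.98, 22.1, 74.5 and 7.69 CPM, again with KKA_186 among the high side. The 2 lower genes were elastin (Eln), with 35.7 ± 6.06 CPM (SD, n = 4) against 78.6 ± 20.7 CPM (SD, n = 5), and the crosslinking enzyme Lox, at -0.91, which overlapped with library size alone. Matricellular and TGF-beta responsive genes were near or below the background, with 3 of 21 higher and 1 lower against 11.5% and 10.6% of all genes. Without KKA_186 they had 8 higher and 1 lower, against 13.2% and 12.5% of all genes. Among the 3 higher with all libraries was Ccn1, with 45.1 ± 6.62 CPM (SD, n = 4) against 19.5 ± 3.31 CPM (SD, n = 5). Another was Ccn2, with 88.9 ± 25.9 CPM (SD, n = 4) against 30.6 ± 18.97 CPM (SD, n = 5). Thbs2 was lower, with 11.3 ± 2.61 CPM (SD, n = 4) against 22.7 ± 2.49 CPM (SD, n = 5). Of 18 fibroblast markers 0 were separated, and 5 were higher without KKA_186. The summed fibroblast marker level was 1674 to 1752 CPM on the high side and 1247 to 4334 CPM on the low side, and its part in the matrix values was not tested.

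Most markers of neutrophils and platelets were lower in the Acta1-high hearts. Of 11 neutrophil markers 8 were lower and 0 higher, with a median of -3.17, and 9 were lower with library size alone. The calcium-binding protein S100a8 stood at 1.86, 1.62, 1.46 and 1.05 CPM in the Acta1-high libraries and at 51.6, 5.84, 7.19, 4.78 and 85.1 CPM in the Acta1-low libraries. All 5 low libraries lie above all 4 high ones, and WC_3 and KKA_187 lie far above the other 3. Csf3r, the receptor of the neutrophil growth factor, stood at 6.83, 7.49, 3.95 and 2.401 CPM against 33.8, 19.6, 18.2, 27.8 and 64.3 CPM. Camp, an antimicrobial peptide of neutrophils, had 0, 0, 0 and 0 raw counts against 46, 19, 15, 3 and 212 in the same order. The summed neutrophil marker level was 32.9 to 51.6 CPM on the high side and 66.8 to 457 CPM on the low side. Of 12 platelet markers 7 were lower and 0 higher, with a median of -2.48, and 8 were lower with library size alone. Ppbp, a platelet chemokine, had 12, 17, 34 and 44 raw counts against 632, 276, 260, 679 and 160, and Gp9, a subunit of the von Willebrand factor receptor, 4, 4, 0 and 0 raw counts against 213, 65, 99, 119 and 48. The median was -2.47 with the 2 genes at 0 on the whole high side set to 3 counts in each of its libraries. The summed platelet marker level was 6.44 to 11.4 CPM on the high side and 19.6 to 45.8 CPM on the low side.

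Red cell genes showed a different distribution. Of 9 markers 2 were lower, with a median of -2.68, and 5 were lower without KKA_186. Their sum was 117 to 491 CPM on the high side and 341 to 7366 CPM on the low side. The haemoglobin gene Hba-a1, which shares sequence with its copy, overlapped with 118, 133, 28.4 and 118 CPM against 1975, 856, 2199, 100.9 and 141 CPM. The WC libraries were high, and KKA_186 and KKA_187 lay at the level of the Acta1-high side. Slc4a1, the anion exchanger of red cells, had 7, 0, 0 and 13 raw counts against 1235, 79, 350, 18 and 27. In bulk RNA fewer cells of a type and less RNA per cell cannot be told apart, and the amount of blood in a sample cannot be told from either. The part of blood in the muscle gene values was not tested.

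Endothelial markers had 4 of 20 lower and 0 higher, with a median of -0.33. The 4 were Pecam1, Eng, Ly6c1 and Vwf. Vwf, the von Willebrand factor, which platelets also hold, stood at 28.9, 16.4, 25.2 and 25.3 CPM in the Acta1-high libraries and at 76.2, 47.2, 55.5, 92.7 and 36.6 CPM in the Acta1-low libraries. Eng, a TGF-beta co-receptor, had 179 ± 27.2 CPM (SD, n = 4) against 300.0 ± 40.3 CPM (SD, n = 5), while Cdh5 and Kdr, which define endothelium, overlapped at -0.08 and 0.03. Eng, Pecam1 and Ly6c1 overlapped with library size alone. Macrophage markers had 3 of 20 lower and 0 higher, with a median of -0.44, near the 10.6% of all genes that were lower. Their mean log2 level relative to the 9 libraries overlapped, at -0.46 to -0.12 against -0.30 to 0.83. The 3 lower markers were Cd163, Mrc1 and the growth factor receptor Csf1r. Cd163 had 8.18 ± 1.54 CPM (SD, n = 4) against 18.2 ± 4.52 CPM (SD, n = 5). Mrc1 had 12.6 ± 2.85 CPM (SD, n = 4) against 24.6 ± 9.77 CPM (SD, n = 5). Csf1r was lower by a log2 difference of -0.77, and of the 3 Mrc1 was separated with library size alone. T and NK cell markers had 0 of 20 separated, with a median of -1.17 and summed levels of 4.63 to 20.9 CPM against 8.28 to 21.4 CPM. B cell markers had 1 of 12 higher and 1 lower. Smooth muscle and pericyte markers had 1 of 15 higher, desmin, which heart muscle also expresses, and 1 lower.

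**Figure D4:**
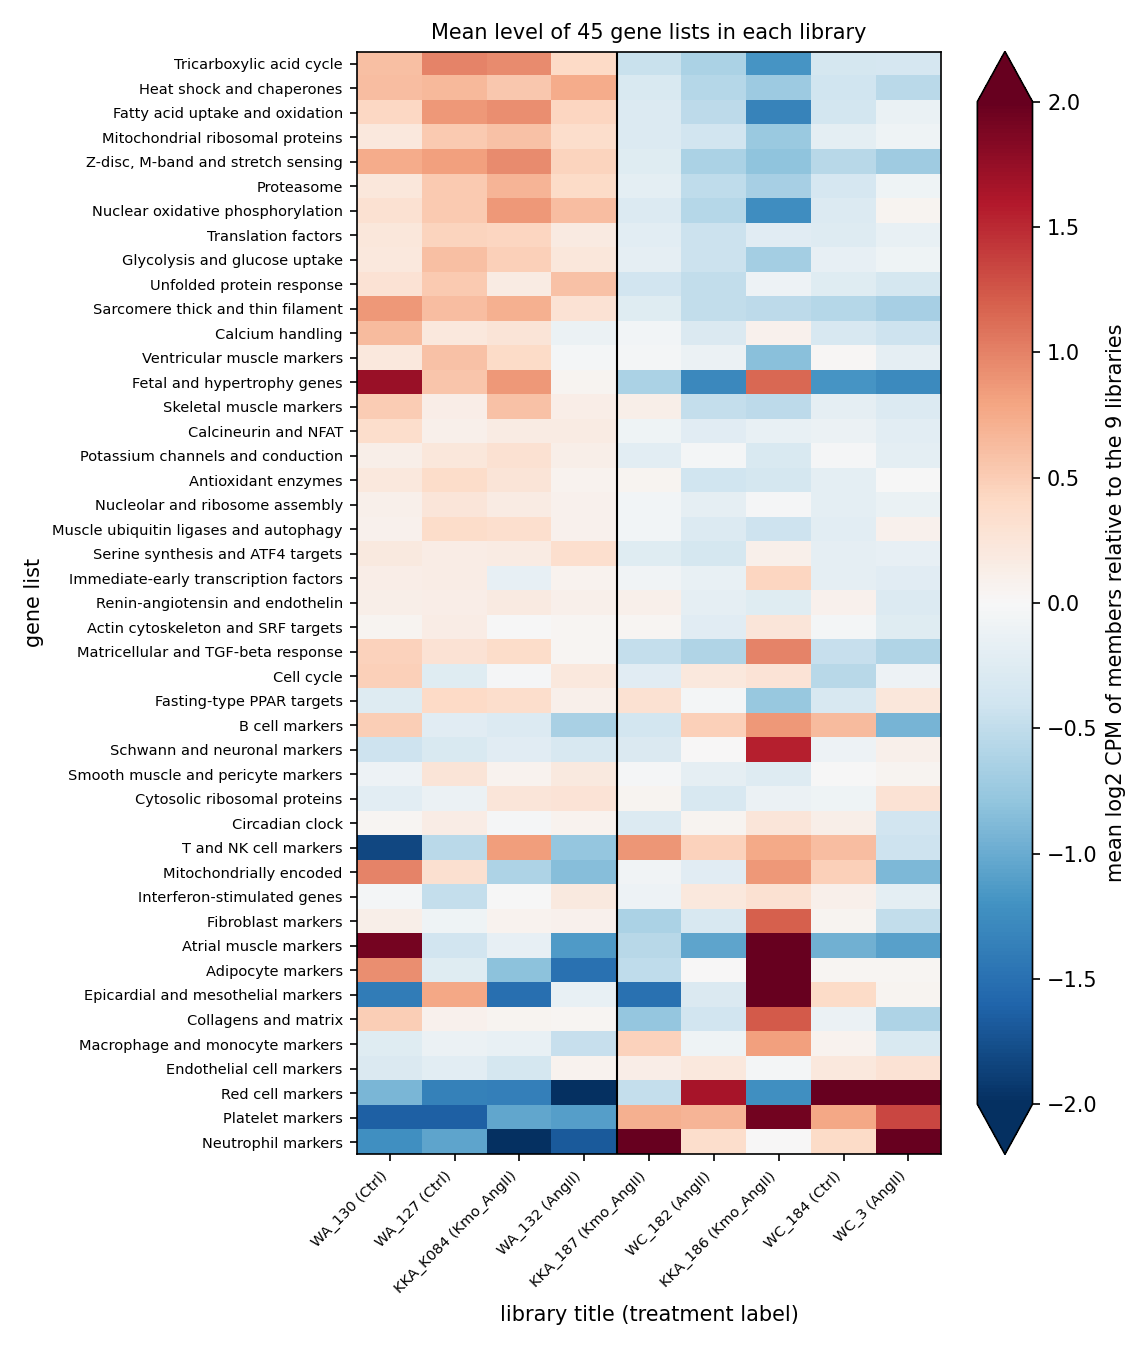
Mean log2 CPM of the members of each of 45 gene lists in each library, relative to the mean of the 9 libraries (colour scale from -2 to 2, values beyond it take the end colours), with the 4 Acta1-high libraries left of the vertical line. The Z-disc, tricarboxylic acid cycle, fatty acid and chaperone lists are red on the left and blue on the right, and neutrophil and platelet lists are mostly the reverse. KKA_186 is dark red in the atrial, adipocyte and epicardial lists.

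Skeletal muscle was checked because it is rich in Acta1. Its defining genes were at or near 0 in every library: Myh1 had at most 9 raw counts on either side, Myh4 at most 4, Myog at most 3 and Myod1 at most 8, and Myh2 had 0 on the high side and at most 11 on the low side. The 14 skeletal markers with enough counts gave 5 higher and 0 lower, with a median of 0.73, which was 0.41 without KKA_186 and 0.50 without WA_130, where 15 had enough counts. The mean log2 level of the list relative to the 9 libraries was 0.13 to 0.59 on the high side and -0.53 to 0.11 on the low side, without overlap. The 5 were Ckm, Mybpc2, Mb, Eno3 and Casq1, of which the creatine kinase Ckm and myoglobin (Mb) are also abundant in heart. Of the 5 only Mybpc2 was also separated with library size alone, where its log2 difference was 1.51. Ckm had 917 ± 160.4 CPM (SD, n = 4) against 299 ± 81.9 CPM (SD, n = 5) and Mb had 7992 ± 1659 CPM (SD, n = 4) against 3260.0 ± 1024 CPM (SD, n = 5), and both overlapped with library size alone. Mylpf, Tnnt3 and Actn3, found in fast skeletal fibres, overlapped at -0.16, -0.74 and -0.90.

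Atrial markers differed between libraries more than between sides, while ventricular markers were partly separated. Of 13 atrial markers 0 were separated. Their summed level, which includes Nppa, was 1272 to 2026 CPM on the high side and 287 to 3085 CPM on the low side. The upper value was that of KKA_186. Their mean log2 level relative to the 9 libraries was -0.38, 1.91, -1.13 and -0.17 on the high side. On the low side it was 3.42 in KKA_186 and -1.09 to -0.56 in the other libraries. Without KKA_186, 4 of 13 were higher. Bmp10, an atrial growth factor that did not pass the filter, reached 2094 raw counts in the highest low-side library and at most 6 on the high side. Of 10 ventricular markers 4 were higher and 0 lower, with a median of 0.66, and 2 were lower without KKA_186. Their summed level was 9497 to 12134 CPM on the high side and 3014 to 6697 CPM on the low side, without overlap. Their mean log2 level relative to the 9 libraries overlapped, at -0.04 to 0.58 against -0.84 to 0.03. Myl2, the ventricular regulatory light chain, stood at 6604, 5749, 6266 and 6925 CPM in the Acta1-high libraries and at 3225, 3503, 4587, 1663 and 3959 CPM in the Acta1-low libraries, and overlapped with library size alone. Lbh, a transcriptional cofactor, had 235 ± 65.6 CPM (SD, n = 4) against 65.9 ± 20.02 CPM (SD, n = 5), while the ventricular factors Irx4 and Hey2 overlapped at -0.53 and -0.76. Epicardial markers had 1 of 14 lower, the complement gene C3, and Schwann and neuronal markers had 1 of 12 higher and 2 lower. Adipocyte markers, given because a protocol text of the labels speaks of an adipose type, had 0 of 12 separated, and 3 lower without KKA_186, with summed levels of 924 to 1219 CPM and 868 to 1689 CPM. Leptin (Lep) had 0 raw counts on the high side and at most 8 on the low side.

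Apart from these lists, the widest gaps among lower genes were seen in genes of varied kinds. Ptpru, a receptor tyrosine phosphatase, stood at 2.14, 3.67, 3.59 and 2.81 CPM in the Acta1-high libraries and at 15.8, 11.1, 10.6, 10.9 and 10.1 CPM in the Acta1-low libraries. Lvrn, a membrane aminopeptidase, had 3.17 ± 0.868 CPM (SD, n = 4) against 12.3 ± 2.504 CPM (SD, n = 5). Phkg1, a catalytic subunit of phosphorylase kinase, which sets off glycogen breakdown, had 9.28 ± 2.59 CPM (SD, n = 4) against 37.9 ± 6.41 CPM (SD, n = 5). C4b, a complement component, stood at 18.2, 14.1, 15.99 and 16.4 CPM against 53.2, 39.9, 40.01, 86.3 and 106 CPM, with the 4 high libraries within 14.1 to 18.2 CPM. On the higher side, Cpxm2, a carboxypeptidase-like secreted protein, had 48.4 ± 9.62 CPM (SD, n = 4) against 9.61 ± 2.53 CPM (SD, n = 5), and Sh3bgr had 139 ± 44.7 CPM (SD, n = 4) against 28.1 ± 1.67 CPM (SD, n = 5). These gaps held with library size alone.

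Because the WA titles are all Acta1-high and the WC titles all Acta1-low, each gene was also given within the titles. WA against WC and, among the KKA libraries, KKA_K084 against KKA_186 and KKA_187 share no library. Of the genes tested, 3144 (16.5%) were higher in all WA than in all WC libraries, and KKA_K084 lay above both other KKA libraries in 2601 of these (82.7%), against 36.3% of all genes. The reverse order, below both, was found in 118. Of 3278 genes (17.2%) lower in WA, KKA_K084 lay below both in 2576 (78.6%), against 38.3% of all genes, and above both in 160. Acta1 differed by 5.65 on the log2 scale between WA and WC and by 4.80 within KKA. The same pair of values was 3.44 and 2.94 for Ankrd1, 3.41 and 3.49 for Nppb, 1.48 and 2.44 for Mdh1, 2.14 and 1.52 for Hspb6 and -1.96 and -4.12 for Csf3r.

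Some lists differed in size between the 2 contrasts. The median of the oxidative phosphorylation list was 0.84 between WA and WC and 1.67 within KKA, and that of fatty acid genes 0.98 and 1.95. The median of collagens and matrix was 0.74 and 0.00, that of atrial markers 1.35 and -1.16, that of red cell markers -4.29 and -0.07 and that of epicardial markers -0.19 and -2.76. The KKA contrast uses the mean of KKA_186 and KKA_187, which lay far apart in the collagen, atrial and epicardial lists. Mean log2 levels in KKA_K084, KKA_187 and KKA_186 were 0.05, -0.78 and 1.23 for collagens and matrix. For atrial markers they were -0.17, -0.56 and 3.42, and for epicardial markers -1.52, -1.49 and 3.64. Heat shock genes, at 1.22 and 1.11, and platelet markers, at -2.32 and -2.37, were close. With 1 library against 2 in KKA no spread can be given, and these medians are descriptions. What the title letters stand for, and whether the libraries were prepared together, cannot be told apart from the Acta1 level in the WA and WC hearts.

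**Figure D5:**
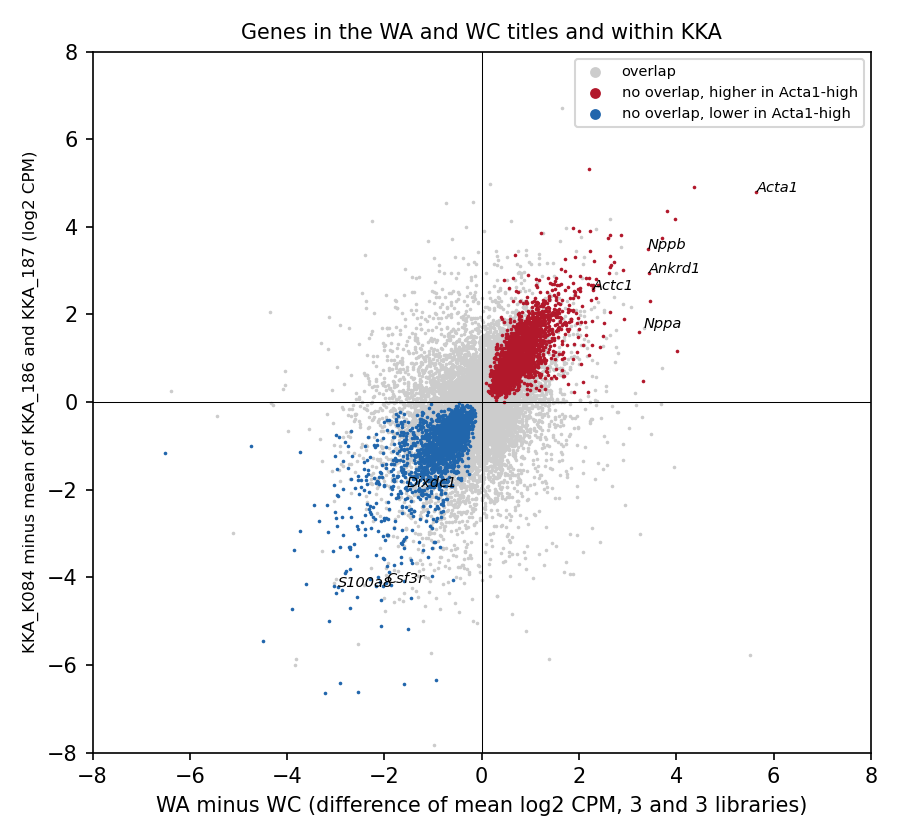
Log2 difference of each tested gene between the 3 WA and the 3 WC libraries (horizontal) and between KKA_K084 and the mean of KKA_186 and KKA_187 (vertical), with genes separated by Acta1 level in red (higher) and blue (lower). The colours were set by both axes, so red genes are in the upper right and blue genes in the lower left by construction, and 4 genes lie outside the plotted range.

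Genes on the 2 sides also differed in type and length. The median longest annotated transcript of protein-coding genes was 3001 bases for higher genes, 3863 bases for lower genes and 3357 bases for all genes tested. For genes at least 2-fold higher it was 2721.5 bases and for those at least 2-fold lower 3232.5 bases. Pseudogenes made up 6.19% of all higher genes and 3.32% of all lower genes, against 8.36% of all genes tested. They made up 12.5% of the genes at least 2-fold higher and 6.44% of those at least 2-fold lower, so the comparison with all genes depends on the set. Some of these pseudogenes, such as Hsp25-ps1 and Mpc1-ps, carry sequence of genes that were themselves higher. Lengths were taken from GRCm38 annotation, which is not the build the submitters name, and 99.9% of the genes had one. The part of transcript length or RNA quality in the separation was not tested.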

How the data were processed

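Poly(A) RNA of 9 mouse hearts was sequenced in paired-end libraries on an Illumina NovaSeq, per the labels' protocols. The authors deposited 1 table of counts, whole numbers for 55401 Ensembl genes that are scaled neither for depth nor for length. Bowtie 0.12.2, HISAT2 2.0, StringTie 1.3.0 and the build mm8 are named in the submitters' processing notes, without roles. How reads were counted, by which annotation and with what strand rule, is not given in the sources used here, so overlapping and antisense genes cannot be told apart.

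The split by raw Acta1 counts, the gene lists and the rules for naming genes were chosen with earlier results of these data known, and they give no independent support. Genes were kept by filterByExpr of edgeR 4.0.16 in R 4.3.3 (minimum count 10), which left 19091. Levels are CPM after TMM scaling, and differences are of mean log2 CPM with a prior count of 2. A gene was separated when the 4 and 5 libraries did not overlap. Labels were compared by edgeR's quasi-likelihood F test on the counts, in 1 fit of 3 groups, with an adjusted p under 0.05 as a call. These p-values set the difference between labels against the spread between libraries that share a label. Each label holds libraries of both sides, so this spread includes the Acta1 split. The standard error restates the fitted difference and its F statistic. The fits were run on simulated counts with 200 seeded changes and the same spread for every gene. That setting differs from these hearts, so it does not show which label differences could be found here.

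Symbols came from a GENCODE table and matched 55141 genes. Where 2 genes shared a symbol (Aldoa), the one with more counts was used. Genes described are 17 index genes, the 15 widest gaps in each direction, up to 4 members of each of 45 lists by difference, and the 10 most like Acta1. Other list members were named after their values were seen, and a few genes are not reported here. Between any 2 libraries the chi-square per degree of freedom was at least 56.6, above counting noise. Alternatives were DESeq2 1.42.0 (size factors and the Wald test), library size alone, other filters, another prior count, leaving out each library, only the groups compared, and leaving out mitochondrially encoded and haemoglobin genes. Leaving out KKA_186 or WA_130 from the list counts was added after the data were seen, as were the list counts under other scalings.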

Additional observations from a re-analysis of the deposited data

Results flagged for a closer look

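Within each of the 2 sides, the 17 index genes, the mean levels of the 45 lists and 3 library values (total count and the shares of mitochondrial and haemoglobin counts) were searched for a single library far from the others, by the gap to the nearest library as a share of the side's whole range. Of 130 combinations of side and value 9 stood out, and chance alone would give about 1 in 20. In 8 of the 9 the library was KKA_186, labelled Kmo_AngII, among the Acta1-low libraries. It was the lowest in Pln, with a share of 0.747 and a log2 CPM of 9.52 against 10.23 to 10.47 in the other 4, and the lowest in ventricular muscle markers, with a share of 0.766. KKA_186 was the highest in atrial muscle markers (0.882, with a mean log2 level 3.42 above the mean of the 9 libraries), in matricellular and TGF-beta responsive genes (0.915), in Schwann and neuronal markers (0.784), in adipocyte markers (0.781), in immediate-early genes (0.764) and in fetal and hypertrophy genes (0.735). The last list shares Nppa, Myl4, Myl7 and Mybphl with the atrial list. Among the Acta1-high libraries, WA_130, labelled Ctrl, was the highest in collagens and matrix, with a share of 0.886 and a mean log2 level of 0.49 against 0.04 to 0.09 in the other 3.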

How the results depend on the processing

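With library size alone 479 genes were higher and 1138 lower, and 325 were higher and 705 lower by at least 2-fold, and the cause was not tested. A size rule of 1.5-fold in place of 2-fold gave 1705 higher and 1477 lower genes, by construction. Leaving out 1 library at a time gave 2313 to 2910 higher and 2220 to 2696 lower genes, and 717 to 1012 and 745 to 899 with at least 2-fold, where fewer libraries also make it easier not to overlap. For the label comparisons edgeR called 0 genes. The DESeq2 Wald test called 8 for AngII minus Ctrl, 3 for Kmo_AngII minus AngII and 9 for Kmo_AngII minus Ctrl. Fitting only the 2 groups compared gave 1 for Kmo_AngII minus Ctrl, and leaving out 1 library gave 0 to 1 for each comparison. For these the cause was not tested. The separated index genes and the lists separated by their mean level kept their sign under the alternatives run. For these genes 120 values, and for these lists 287, moved by no more than the spread between libraries. A further 13 values of these lists moved by more. Acta2 and Kmo, which overlapped, changed sign in 3 and 1 alternatives. No paired analysis was possible because the replicate numbers only follow accession order. With 9 libraries split on a measured gene, neither a test nor an error of the split can be given, and genes with few counts, such as Kcne1 or the platelet markers, carry the widest counting error.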
